A study of Mus musculus with 32 samples.

Results

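Reactive astrocyte genes are the transcripts that astrocytes raise when nervous tissue is injured or inflamed. The set examined here held 31 genes of 42524 in the count table: 6 pan-reactive genes (raised after several kinds of injury), 8 A1-type genes (raised after inflammatory stimuli), 9 A2-type genes (raised after ischaemia) and 8 other genes of astrocytes. The genes were taken by symbol from a list that follows published marker panels for these states, by a rule that uses no measured value although results of these data were already known, and all 31 were found in the table.

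RNA of the spinal cord was sequenced from 32 mice in 8 groups of 4, crossing genotype, treatment and age. G93A mice carried the human SOD1 gene with the G93A mutation, a transgene that causes motor neuron disease, on a C57BL/6J background, and WT mice were their littermates. OKN-007, a nitrone compound with anti-inflammatory and antioxidant actions, was given in the drinking water, and untreated mice received none. The labels give the ages as 90 and 155 days, and the methods place the younger group slightly later, near the onset of symptoms. The dose given to the sequenced mice is not named in the labels, and the cohorts on the higher dose are described as female. A weighed piece of cord was used, with its level not stated. The transgene is expressed in all cells that use the SOD1 promoter, so the model is not specific to astrocytes or to motor neurons, and its level was not analysed here. Each library came from a separate mouse and held 19701722 to 30138257 counts (median 26658755). Values below are in CPM, the usual scale of a gene's counts relative to its library's total, here after TMM scaling for library composition, and those of the 4 mice of a group are listed from lowest to highest.

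Astrocytes respond to injury by enlarging, by raising intermediate filament genes and by secreting acute-phase proteins, protease inhibitors and complement regulators. Cytokines of the interleukin-6 family act through gp130 and STAT3 in these cells, while interleukin-1 and tumour necrosis factor from microglia act through NF-kB and are linked to the A1 state. In the spinal cord of SOD1 mice, astrocytes become reactive around dying motor neurons. Several of the genes are not confined to astrocytes: Lcn2 is made by neutrophils, Cd44 and Srgn by immune cells and S100b by oligodendrocytes.

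All 16 genes of an astrocyte identity list (Aldh1l1, Aqp4, Slc1a2 and others) were detected, with summed levels of 8777 to 14299 CPM over the 32 mice. Schwann cell genes (Prx, Pmp2, Ncmap), which mark nerve roots, summed to 261 CPM in the untreated WT mouse 3 of the 90-day group and to 45.9 CPM in the untreated G93A mouse 10 of that age, against at most 13.9 CPM in the other 30 mice. The mean log2(CPM + 1) of 11 caudal Hox genes, which mark the lower cord, was 2.26 ± 0.52 (SD, n = 4) in untreated WT and 0.97 ± 0.75 in untreated G93A mice at 155 days, and whether the cord level sampled differed between them was not tested otherwise. Each comparison was also fitted with that mean as a covariate. Oligodendrocyte genes summed to a group mean of 36116 CPM in untreated WT mice at 90 days and 21849.7 CPM at 155 days, and age cannot be told apart from any batch that went with it. In bulk tissue, a change in the number of cells of a type cannot be told apart from a change in RNA per cell.

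The set was high in G93A mice at 155 days and near the WT level at 90 days (heat map of all genes by mouse). The mean log2(CPM + 1) over the 31 genes was 3.01, 3.04, 3.06 and 3.07 in the untreated WT mice and 4.49, 4.54, 5.06 and 5.43 in the untreated G93A mice at 155 days. With OKN-007 it was 3.003, 3.01, 3.06 and 3.10 in WT and 4.66, 4.92, 5.02 and 5.03 in G93A mice. At this age every G93A mouse lay above every WT mouse, and the range of the treated G93A mice lay within that of the untreated ones. At 90 days the means were 3.20, 3.27, 3.28 and 3.45 in untreated WT, 3.15, 3.36, 3.68 and 3.70 in untreated G93A, 3.13, 3.16, 3.25 and 3.30 in treated WT and 3.29, 3.34, 3.53 and 3.54 in treated G93A mice, with overlap of the genotypes when untreated and, with OKN-007, a lowest G93A value below the highest WT value. WT mice were slightly lower at 155 than at 90 days, 3.04 ± 0.03 against 3.30 ± 0.11 (SD, n = 4) without treatment.

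**Figure D1:**
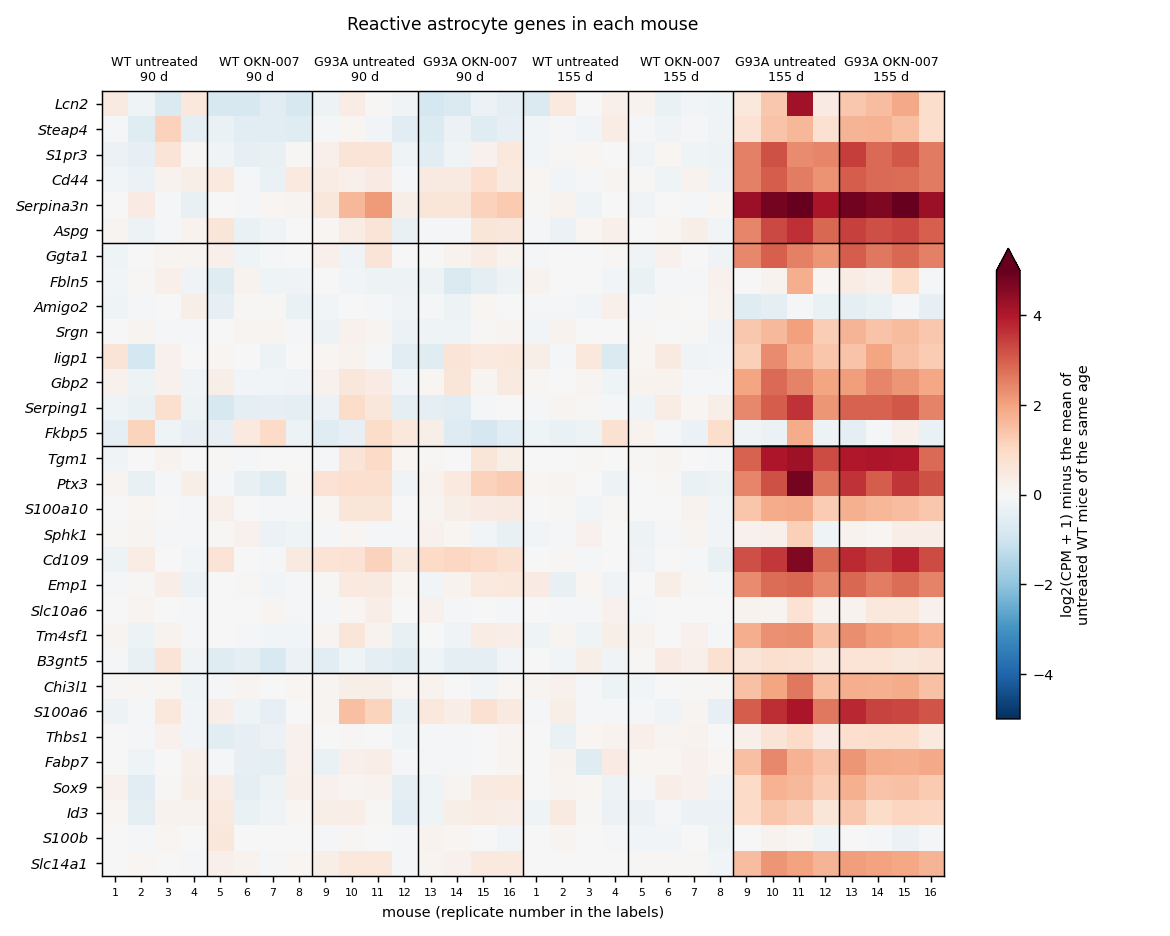
Heat map of log2(CPM + 1) for the 31 genes (vertical, ordered by sub-list) in the 32 mice (horizontal, by group), shown as the difference from the mean of the untreated WT mice of the same age (red higher, blue lower). The 8 G93A mice at 155 days are red for most genes, S100b and Amigo2 stay near white, and untreated mouse 11 of that age stands out for Lcn2, Ptx3, Fbln5 and Fkbp5.

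At 155 days, 26 of the 30 genes tested were higher and 1, Amigo2, was lower in untreated G93A than in untreated WT mice (edgeR quasi-likelihood test, adjusted p under 0.05). Of all 18675 genes tested, 21.3% were higher and 18.2% lower. The median log2 fold change of the 30 genes was 2.13, against 0.00 over all genes. In 24 of the 30, every G93A mouse was above every WT mouse, which held for 15.6% of all genes tested. Among the 26, only Lcn2 and Fbln5 had overlapping groups. Slc10a6 had too few counts to be tested, and Fkbp5, Sphk1 and S100b did not pass. With the Hox covariate 27 genes were called in either direction, the same number, with Amigo2 lost and Fkbp5 gained. The Hox mean ranged from 1.65 to 2.85 in untreated WT and from 0.313 to 1.67 in untreated G93A mice. With OKN-007 it did not overlap between genotypes, so this fit cannot fully tell cord level apart from genotype. Changes below are log2 fold changes unless another scale is named.

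Promoter sequences were looked up for the genes because STAT3, C/EBP and NF-kB sites are known features of acute-phase genes. RefSeq entries (GRCm38.p6) matched 24 of the 31 genes, with 32 promoters. The 250 bases before each annotated start were searched on both strands for TTC and GAA 3 or 4 bases apart (STAT, the spacings counted apart), TTGCNNAA (C/EBP), GGGA and CC 4 bases apart (NF-kB) and TGANTCA (AP-1). A strongly changed gene with a match is shown for each of NF-kB, STAT and C/EBP, 5′ to 3′ on the gene's strand, with the matching letters in capitals. Serpina3n (chr12:104406458-104406707, plus strand) has 2 NF-kB matches, Tgm1 (chr14:55713493-55713742, minus strand) has 2 STAT matches and Ptx3 (chr3:66219637-66219886, plus strand) has 1 C/EBP match. Of the 250 bases before the Tgm1 start, 2 lie in an annotated exon, and none do for Serpina3n and Ptx3.
Serpina3n: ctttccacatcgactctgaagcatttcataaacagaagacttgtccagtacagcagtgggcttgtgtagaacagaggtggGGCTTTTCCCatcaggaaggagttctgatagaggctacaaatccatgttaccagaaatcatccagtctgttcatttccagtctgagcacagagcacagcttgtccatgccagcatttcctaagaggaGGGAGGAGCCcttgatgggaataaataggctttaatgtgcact
Tgm1: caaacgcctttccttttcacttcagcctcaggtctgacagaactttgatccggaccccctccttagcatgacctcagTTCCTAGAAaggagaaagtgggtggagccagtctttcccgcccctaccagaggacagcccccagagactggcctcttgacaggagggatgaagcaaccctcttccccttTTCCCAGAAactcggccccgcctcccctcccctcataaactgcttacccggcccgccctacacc
Ptx3: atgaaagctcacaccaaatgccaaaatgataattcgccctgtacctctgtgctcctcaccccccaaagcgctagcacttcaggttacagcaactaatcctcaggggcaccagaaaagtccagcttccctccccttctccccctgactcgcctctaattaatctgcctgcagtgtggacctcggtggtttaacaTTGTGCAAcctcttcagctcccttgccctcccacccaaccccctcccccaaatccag

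The STAT letters with the 3-base spacing were in 5 of the 32 promoters (15.6%), those of Steap4, Tgm1, Sphk1 and Emp1, against 7.02% of 32851 promoters genome-wide. The wider spacing was in 3 of 32 (9.38%), those of Lcn2, Cd44 and Slc10a6, against 5.85%. C/EBP letters were in 4 (12.5%), those of Lcn2, Steap4, Ggta1 and Ptx3, against 9.56%. NF-kB letters were in 5 (15.6%), those of Steap4, Serpina3n, Amigo2, Tm4sf1 and Chi3l1, against 17.6%, and AP-1 letters in 4 (12.5%), those of Gbp2, Sphk1 and Emp1, against 6.75%. Sphk1 entered the STAT and AP-1 counts through overlapping windows that hold the same letters, so each of its matches was counted more than once. In Emp1 an AP-1 match shares bases with a STAT match. These are matches of letters and say nothing of binding.

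All 6 pan-reactive genes rose in untreated G93A mice at 155 days, with a median log2 fold change of 3.24. Serpina3n, a secreted serine protease inhibitor, was at 36.1, 41.8, 44.4 and 47.6 CPM in WT and 734, 837, 1207 and 2059.6 CPM in G93A mice. Every G93A mouse was far above the WT mice, and the log2 fold change was 4.87 ± 0.26 (SE, adjusted p = 9.96e-11). Aspg, an asparaginase, was at 3.49, 4.11, 4.90 and 5.59 CPM in WT and 28.8, 38.9, 52.6 and 68.0 CPM in G93A mice, a log2 fold change of 3.41 ± 0.21 (SE, adjusted p = 4.87e-10) with no overlap. S1pr3, a receptor for sphingosine 1-phosphate, was at 2.78, 3.07, 3.24 and 3.38 CPM in WT and 20.2, 21.2, 22.9 and 36.8 CPM in G93A mice. These groups did not overlap, and 1 G93A mouse stood above the other 3 (log2 fold change 3.06 ± 0.21 SE, adjusted p = 1.26e-09).

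Lcn2, which encodes the iron-siderophore carrier lipocalin 2, varied widely between mice. It was at 0.114, 0.855, 1.21 and 1.58 CPM in WT and 1.46, 1.65, 3.75 and 32.8 CPM in G93A mice, so the highest WT value passed the lowest G93A value and a single G93A mouse (mouse 11) was far above the rest. The log2 fold change was 3.42 ± 0.83 (SE, adjusted p = 0.00273). Without mouse 11 it was 1.31 (adjusted p = 0.0435), and with the Hox covariate it was 4.96 (adjusted p = 0.000793). Of 5 neutrophil genes 2 could be tested, 0 were called by edgeR or DESeq2, and 0 had an unadjusted p under 0.05. So few genes cannot be compared with the 21.3% of all genes called higher and 18.2% called lower. The list summed to 0.772 to 1.11 CPM in these G93A mice and 0.228 to 2.57 CPM in WT. Cd44, the hyaluronan receptor, went from 10.6 ± 1.12 to 69.5 ± 16.6 CPM (SD, n = 4 mice each), with a log2 fold change of 2.75 ± 0.15 (SE, adjusted p = 8.88e-11). Steap4, a metalloreductase, went from 0.462 ± 0.261 to 2.32 ± 1.07 CPM, a log2 fold change of 2.31 ± 0.38 (SE, adjusted p = 8.61e-05).

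Of the 8 A1-type genes, 6 rose and 1 fell, and the median log2 fold change was 1.94. Serping1, the C1 inhibitor that blocks the first step of the complement cascade, was at 4.15, 4.15, 4.62 and 5.02 CPM in WT and 24.6, 27.8, 44.0 and 66.7 CPM in G93A mice. The groups did not overlap and the log2 fold change was 3.22 ± 0.26 (SE, adjusted p = 1.20e-08). Ggta1, an alpha-galactosyltransferase, rose by a log2 fold change of 2.83 ± 0.16 (SE, adjusted p = 2.03e-10). The interferon-induced GTPases Gbp2 and Iigp1 rose by 2.62 ± 0.18 (SE, adjusted p = 1.22e-09) and 2.14 ± 0.33 (SE, adjusted p = 4.47e-05), and both belong to families of close copies among which reads may be split. Srgn, the core protein of a granule proteoglycan, rose by 1.75 ± 0.15 (SE, adjusted p = 4.26e-08).

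Amigo2, a cell adhesion molecule, was the only gene that fell. It was at 12.2, 13.05, 13.3 and 16.8 CPM in WT and 8.72, 9.88, 10.7 and 12.6 CPM in G93A mice, with the highest G93A mouse above the lowest WT mouse. The log2 fold change was -0.36 ± 0.13 (SE, adjusted p = 0.0319), and with the Hox covariate it was -0.05 (adjusted p = 0.856). The call was also lost without any of WT mice 2 and 4 or G93A mice 9 and 10. The log2 fold changes were then -0.36, -0.23, -0.28 and -0.31. A fit of only the compared groups lost the call too (-0.36, adjusted p = 0.0671). Fbln5, an elastic fibre protein, was called at 0.88 ± 0.34 (SE, adjusted p = 0.0474) and rested on G93A mouse 11, without which it was 0.17 (adjusted p = 0.545). Leaving out any 1 WT mouse gave 0.85 to 0.94, with adjusted p of 0.0671 to 0.0922. Fbln5 was also not called with DESeq2 (adjusted p = 0.0810), robust dispersions (0.0914), RLE scaling (0.0509) or only the compared groups (0.0945). Fkbp5, a glucocorticoid-induced immunophilin, was at 32.6 ± 13.9 CPM in WT and 47.8 ± 43.9 CPM in G93A mice, a log2 fold change of 0.59 ± 0.41 (SE, adjusted p = 0.278), or 1.56 (adjusted p = 0.0193) with the Hox covariate. G93A mouse 11 had the highest levels of Fkbp5 (114 CPM), Fbln5 (25.8 CPM) and Lcn2 together.

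Of the 8 A2-type genes tested, 7 rose, with a median log2 fold change of 2.48. Tgm1, a transglutaminase known for cross-linking proteins in skin, had the largest difference of the set. It was at 0.0327, 0.0380, 0.0426 and 0.0777 CPM in WT, at most 2 counts in a mouse, and at 7.03, 9.04, 16.1 and 19.0 CPM in G93A mice. Tgm1 was all but absent in WT cord and present in every G93A mouse. The 4 G93A mice held 1325 counts against 5 in WT, a depth-scaled ratio of 264 with a 95% counting interval of 113 to 815, and the fitted log2 fold change was 7.98 ± 0.54 (SE, adjusted p = 1.44e-09). A count of 3 in the smallest library corresponds to 0.152 CPM. Ptx3, the secreted pattern-recognition protein pentraxin 3, was at 0.719, 1.05, 1.18 and 1.23 CPM in WT and 9.91, 11.9, 17.3 and 54.9 CPM in G93A mice. Its groups did not overlap, mouse 11 was again the highest, and the log2 fold change was 4.53 ± 0.48 (SE, adjusted p = 4.41e-07), or 3.69 (adjusted p = 7.36e-10) without that mouse.

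Cd109, a membrane protein that binds TGF-beta, was at 3.38, 3.43, 3.61 and 3.70 CPM in WT and 30.7, 41.2, 52.0 and 111 CPM in G93A mice. There was no overlap, and the log2 fold change was 4.09 ± 0.31 (SE, adjusted p = 5.89e-09). B3gnt5, a glycosyltransferase of lacto-series glycolipids, was low, at 0.294, 0.341, 0.494 and 0.777 CPM in WT and 1.07, 1.27, 1.46 and 1.56 CPM in G93A mice, again without overlap, a log2 fold change of 1.54 ± 0.31 (SE, adjusted p = 0.000702). The membrane proteins Emp1 and Tm4sf1 rose by 2.84 ± 0.16 (SE, adjusted p = 1.74e-10) and 2.11 ± 0.18 (SE, adjusted p = 2.06e-08), and the annexin partner S100a10 by 1.69 ± 0.13 (SE, adjusted p = 5.44e-09). Sphk1, the kinase that makes sphingosine 1-phosphate, was at 3.83 ± 0.554 CPM in WT and 5.63 ± 2.998 CPM in G93A mice (0.59 ± 0.25 SE, adjusted p = 0.0638), and its log2 fold change was 0.80 (adjusted p = 0.00768) without G93A mouse 12. Slc10a6, a transporter of sulphated steroids, ranged from 0 to 0.229 CPM in WT and from 0.165 to 0.772 CPM in G93A mice and could not be tested.

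**Figure D2:**
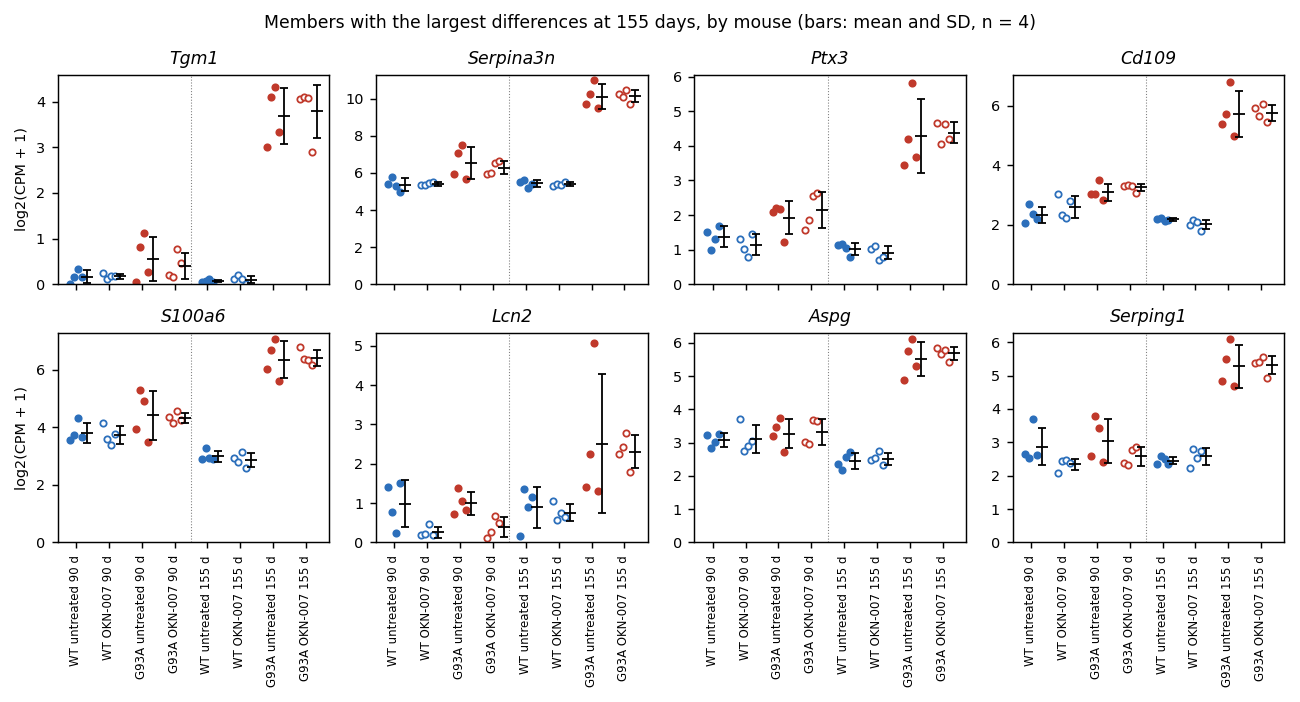
Expression per mouse as log2(CPM + 1), on axes that start at 0, for the 8 genes with the largest changes at 155 days (Tgm1, Serpina3n, Ptx3, Cd109, S100a6, Lcn2, Aspg, Serping1), in all 8 groups of 4 mice. Points are mice, bars are means and SDs, and a dotted line divides the ages. The 155-day G93A mice lie above the 155-day WT mice in every panel except that of Lcn2, where untreated groups overlap.

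Of the 8 other astrocyte genes, 7 rose, with a median log2 fold change of 1.66. S100a6, a calcium-binding protein, was at 6.39, 6.41, 6.57 and 8.64 CPM in WT and 48.3, 64.7, 102 and 133 CPM in G93A mice. Each G93A mouse was several-fold above the WT mice, and the log2 fold change was 3.68 ± 0.25 (SE, adjusted p = 1.75e-09). Chi3l1, a secreted chitinase-like protein used as a marker of glial activation in cerebrospinal fluid, rose by 2.06 ± 0.20 (SE, adjusted p = 1.30e-07). The urea transporter Slc14a1 rose by 1.97 ± 0.11 (SE, adjusted p = 2.14e-10) and the fatty acid-binding protein Fabp7 by 1.85 ± 0.20 (SE, adjusted p = 7.03e-07). The transcription factor Sox9, which specifies astrocytes, rose by 1.47 ± 0.15 (SE, adjusted p = 3.33e-07), the transcriptional inhibitor Id3 by 1.17 ± 0.18 (SE, adjusted p = 4.10e-05) and the synapse-promoting thrombospondin Thbs1 by 0.73 ± 0.17 (SE, adjusted p = 0.00196). S100b, a long-used astrocyte marker, was at 526 ± 35.3 CPM in WT and 535 ± 56.7 CPM in G93A mice, and the log2 fold change was 0.07 ± 0.09 (SE, adjusted p = 0.577), with a 95% interval of -0.12 to 0.25.

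Levels between genes were compared as CPM per kilobase of exon (RPKM). In untreated WT mice at 155 days S100b was the highest of the set at 355 RPKM, followed by Fabp7 (31.9), S100a10 (31.2) and Serpina3n (20.6). In untreated G93A mice Serpina3n led at 586 RPKM, with S100b at 360.4, Fabp7 at 112, S100a10 at 97.96 and S100a6 at 63.6. Tgm1, which had the largest fold change, reached 4.05 RPKM, and Lcn2 3.78 RPKM. The Lcn2 mean was carried by mouse 11, at 32.8 CPM in a group of 9.92 ± 15.3 CPM (SD, n = 4). Fold change and level ordered the genes differently.

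Related lists were read beside the set in the same comparison. Of the other genes of the reactive panels 12 of 13 tested rose, among them the intermediate filament genes Gfap (2.401 ± 0.11, log2 fold change ± SE) and Vim (3.87 ± 0.24), the protease inhibitor Timp1 (6.82 ± 0.36) and the oncostatin M receptor Osmr (3.34 ± 0.17). Of 16 astrocyte identity genes, 9 rose and 1 fell, with a median log2 fold change of 0.35, and the water channel Aqp4 (1.28 ± 0.11), Mlc1 (1.05 ± 0.11) and Aldh1l1 (0.94 ± 0.11) were among those that rose. Their summed level was 9359 to 10002 CPM in WT and 10944 to 14299 CPM in G93A mice. Of 14 gp130 and STAT3 pathway genes tested, 10 rose and 2 fell, with Socs3 (3.96 ± 0.30), Cebpd (3.62 ± 0.28) and Stat3 (0.92 ± 0.08) among the higher. All 5 microglial inducers of the A1 state rose, among them the complement genes C1qa (3.55 ± 0.20) and C1qc (3.40 ± 0.23) and the cytokine gene Il1a (2.68 ± 0.24).

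Genes of other cell types were read in the same comparison. All 9 microglial genes rose, with none at 0 in any group, and their summed level was 319.8 to 390.0 CPM in WT and 1186 to 1957 CPM in G93A mice. All 6 neuronal genes fell, with sums of 2186 to 2731 CPM in WT and 1251 to 1862 CPM in G93A mice. No gene of the border macrophage (4 tested) or endothelial (6) lists was called by edgeR or DESeq2, with 2 of each at an unadjusted p under 0.05. Of all genes, 21.3% were called higher and 18.2% lower by edgeR, and each of these also had an unadjusted p under 0.05. Of the pericyte and fibroblast genes 4 of 6 rose (median log2 fold change 0.44), as did all 3 genes of oligodendrocyte precursors (0.87). The 1 of 4 ependymal genes (median -0.38) and 1 of 5 oligodendrocyte genes (median 0.02) that were higher are near the 21.3% of all genes, and the oligodendrocyte sum was 20572 to 22967 CPM in WT and 19826 to 24169 CPM in G93A mice. The part of these cells in the levels of Cd44, Srgn, Gbp2 and the other genes they can express was not tested.

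The G93A difference at 155 days was also present in mice given OKN-007. Of the 30 genes tested, 24 were higher and 0 lower, against 23.3% and 18.2% of all genes, and the median log2 fold change was 2.07. In 24 of 30 every G93A mouse was above every WT mouse, which held for 20.2% of all genes. The sub-lists gave 6 of 6 pan-reactive, 5 of 8 A1-type, 6 of 8 A2-type and 7 of 8 other astrocyte genes higher.

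Tgm1 was at 0, 0.0749, 0.0769 and 0.148 CPM in treated WT and 6.49, 15.6, 15.9 and 16.3 CPM in treated G93A mice, and Serpina3n at 37.8, 39.9, 42.0 and 45.3 CPM in WT and 846, 1109, 1233 and 1406 CPM in G93A mice. Neither gene overlapped between genotypes, and the log2 fold changes were 7.50 ± 0.51 (SE, adjusted p = 1.01e-09) and 4.87 ± 0.26 (SE, adjusted p = 6.77e-11). Ptx3 was at 0.637, 0.719, 1.04 and 1.15 CPM in WT and 15.7, 17.3, 23.6 and 24.1 CPM in G93A mice (4.58 ± 0.48 SE, adjusted p = 4.04e-07). Cd109 was at 2.48, 2.96, 3.30 and 3.48 CPM in WT and 42.8, 49.5, 59.7 and 65.8 CPM in G93A mice (4.23 ± 0.31 SE, adjusted p = 3.61e-09). Every treated G93A mouse was above every treated WT mouse in both. S100a6 was at 4.998, 5.95, 6.62 and 7.83 CPM in WT and 70.1, 79.8, 82.0 and 109 CPM in G93A mice (3.82 ± 0.26 SE, adjusted p = 9.63e-10), and Aspg was at 3.99, 4.54, 4.84 and 5.69 CPM in WT and 42.4, 49.3, 54.6 and 56.9 CPM in G93A mice (3.49 ± 0.21 SE, adjusted p = 2.68e-10). Serping1 was at 3.69, 4.80, 5.68 and 5.99 CPM in WT and 29.2, 40.8, 41.4 and 46.2 CPM in G93A mice (3.04 ± 0.25 SE, adjusted p = 1.77e-08), and S1pr3 at 2.48, 2.55, 2.62 and 3.37 CPM in WT and 24.1, 28.1, 34.8 and 43.9 CPM in G93A mice (3.65 ± 0.21 SE, adjusted p = 1.29e-10). None of these 4 overlapped either.

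Lcn2 was at 0.481, 0.575, 0.674 and 1.08 CPM in treated WT and 2.43, 3.74, 4.35 and 5.88 CPM in treated G93A mice, here without overlap and without a mouse far above the others. Its log2 fold change was 2.62 ± 0.86 (SE, adjusted p = 0.0199), or 4.35 (adjusted p = 0.00394) with the Hox covariate. Leaving out WT mouse 6, WT mouse 8 or G93A mouse 15 gave 2.48, 2.53 and 2.38, each just past an adjusted p of 0.05. B3gnt5 was at 0.538, 0.749, 0.925 and 1.47 CPM in WT and 1.18, 1.31, 1.35 and 1.37 CPM in G93A mice, with 1 WT mouse (mouse 8) above all G93A mice. Its log2 fold change was 0.57 ± 0.29 (SE, adjusted p = 0.125), and 0.89 (adjusted p = 0.0246) without that mouse. Amigo2 was at 12.6, 13.4, 14.4 and 15.7 CPM in WT and 9.50, 10.2, 10.7 and 13.04 CPM in G93A mice (-0.29 ± 0.13 SE, adjusted p = 0.0716) and did not pass. It was called lower in a fit of only the compared groups (-0.31, adjusted p = 0.0300) and without G93A mouse 15 (-0.41, adjusted p = 0.0200). Slc10a6, at 0 to 0.0749 CPM in treated WT and 0.202 to 0.539 CPM in treated G93A mice, held 5 and 43 counts, a ratio of 8.18 with a counting interval of 3.25 to 26.5, and its groups did not overlap. Fbln5 (0.59 ± 0.34), Fkbp5 (-0.32 ± 0.42), Sphk1 (0.46 ± 0.25) and S100b (0.09 ± 0.09, log2 fold change ± SE) were not called. In the fit of only the compared groups Fbln5 (0.58, adjusted p = 0.0291) and Sphk1 (0.45, adjusted p = 0.0181) were called, and Fbln5 also with no low-count filter (0.58, adjusted p = 0.0377).

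**Figure D3:**
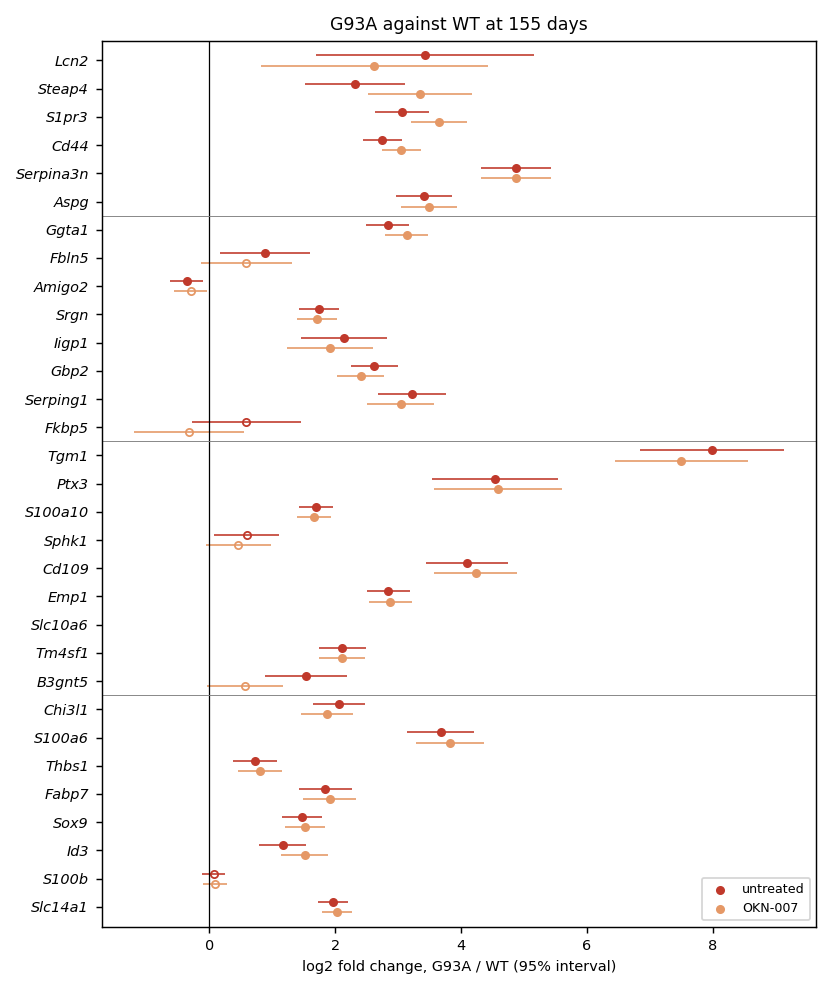
Log2 fold change of G93A against WT at 155 days for the 30 genes tested, untreated and with OKN-007, with 95% intervals as bars, genes ordered by sub-list and filled points for adjusted p under 0.05 (Slc10a6 was not tested). The intervals of the same gene overlap between treatments for most genes, and Tgm1 at 7.98 and 7.50 is the farthest from 0.

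At 90 days the genotypes were much closer. None of the 29 genes tested (Tgm1 and Slc10a6 were too low) was called between untreated G93A and WT mice by edgeR, as for all genes (0%). At an unadjusted p under 0.05 there were 8, against 5.96% of all genes, of which 7 were higher and B3gnt5 was lower. DESeq2 called 1, Cd109 (adjusted p = 0.0462), and edgeR's likelihood ratio test 2, Serpina3n and Cd109. In 2 of 29 genes, Cd109 and Chi3l1, every G93A mouse was above every WT mouse, against 0.958% of all genes. The gap for Chi3l1 was narrow (highest WT 18.89 CPM, lowest G93A 18.95 CPM), and its genotypes overlapped with OKN-007.

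Cd109 was at 3.17, 3.59, 4.09 and 5.50 CPM in untreated WT and 6.06, 7.15, 7.28 and 10.3 CPM in untreated G93A mice at 90 days, without overlap, a log2 fold change of 0.94 ± 0.21 (SE, adjusted p = 0.537). Serpina3n was at 30.9, 38.6, 41.4 and 54.7 CPM in WT and 49.7, 59.8, 132 and 178 CPM in G93A mice. Its lowest G93A mouse lay below the highest WT mouse while 2 G93A mice were well above (1.38 ± 0.31 SE, adjusted p = 0.537). Without G93A mouse 12 it was 1.62 (adjusted p = 0.0488). Ptx3 was at 1.003, 1.46, 1.86 and 2.21 CPM in WT and 1.31, 3.27, 3.49 and 3.64 CPM in G93A mice, with 3 of 4 G93A mice above all WT mice (0.86 ± 0.37 SE, adjusted p = 0.822), and S100a6 was at 10.7, 11.6, 12.2 and 19.1 CPM in WT and 10.2, 14.3, 29.3 and 38.6 CPM in G93A mice, with overlap (0.82 ± 0.31 SE, adjusted p = 0.822). Tgm1 ranged from 0 to 0.263 CPM in WT and from 0.0389 to 1.16 CPM in G93A mice.

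Aspg (6.09, 7.10, 8.46 and 8.58 CPM in WT and 5.55, 8.13, 10.04 and 12.3 CPM in G93A mice), Amigo2 (10.8, 12.4, 12.8 and 15.9 CPM in WT and 11.1, 11.5, 12.1 and 12.5 CPM in G93A mice) and Lcn2 (0.188, 0.706, 1.68 and 1.84 CPM in WT and 0.661, 0.758, 1.08 and 1.59 CPM in G93A mice) overlapped between untreated genotypes. B3gnt5 was at 0.743, 1.02, 1.16 and 2.55 CPM in WT and 0.517, 0.544, 0.645 and 0.981 CPM in G93A mice (-1.01 ± 0.38 SE, adjusted p = 0.822). The highest WT value was that of mouse 3, the library with 261 CPM of Schwann cell genes, and without it the difference was -0.52. That mouse also had the highest WT values of Serping1 (4.75, 5.11, 5.33 and 11.9 CPM in WT, 4.27, 5.01, 9.77 and 12.7 CPM in G93A mice), S1pr3 (2.64, 2.94, 4.04 and 6.65 CPM in WT and 3.20, 4.74, 6.63 and 6.67 CPM in G93A mice) and Steap4 (3.19 CPM, against 0.223 to 0.745 CPM in the other 3 WT mice). The part of nerve root tissue in these values was not tested.

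With OKN-007 at 90 days, edgeR again called 0 of 29 (0% of all genes), DESeq2 0, and 4 had an unadjusted p under 0.05 (3.95% of all genes), all higher. Serpina3n, Ptx3 and Cd109 had no overlap between genotypes, 3 of 29 against 1.81% of all genes. Ptx3 was at 0.713, 1.02, 1.49 and 1.72 CPM in treated WT and 1.94, 2.65, 4.81 and 5.21 CPM in treated G93A mice (1.57 ± 0.38 SE, adjusted p = 0.9996), and Serpina3n was at 39.2, 39.7, 43.0 and 44.6 CPM in WT and 61.8, 61.9, 92.3 and 101 CPM in G93A mice (0.92 ± 0.31 SE, adjusted p = 0.9996). Cd109 was at 3.73, 4.03, 5.92 and 7.15 CPM in WT and 7.49, 8.83, 8.96 and 9.17 CPM in G93A mice (0.73 ± 0.21 SE, adjusted p = 0.9996). The gaps were narrow for Ptx3 and Cd109 and wider for Serpina3n than the whole range of its treated WT mice, and none of these passed the adjusted threshold.

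When the genotype difference was averaged over both treatments at 90 days, edgeR called none of the 29, while 3 of all genes were higher (0.0159%) and 2 lower (0.0106%). At an unadjusted p under 0.05 there were 9, all higher, against 6.61% of all genes in either direction. The nearest to the threshold were Cd109 (0.83 ± 0.15 SE, adjusted p = 0.0648), Serpina3n (1.15 ± 0.22 SE, adjusted p = 0.0777) and Ptx3 (1.21 ± 0.26 SE, adjusted p = 0.137). The others were S100a10 (0.34), Slc14a1 (0.31), S100a6 (0.72), Emp1 (0.34), Gbp2 (0.37) and Cd44 (0.32, log2 fold changes). DESeq2 and the likelihood ratio test each called Serpina3n, Ptx3 and Cd109, and without untreated G93A mouse 12, which was lowest of its group in 23 of the 31 genes, edgeR called 4.

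Whether the genotype difference changed with age was tested directly, as the change of the untreated G93A against WT difference between 90 and 155 days, in a fit of all 32 mice. The difference grew in 25 of 30 genes and shrank in 0, against 12.9% and 8.34% of all genes, and its median growth was 2.31 on the log2 scale. It grew in 6 of 6 pan-reactive, 5 of 8 A1-type, 7 of 8 A2-type and 7 of 8 other astrocyte genes. The change was 3.49 ± 0.42 (SE, adjusted p = 2.44e-07) for Serpina3n, 3.15 ± 0.39 (SE, adjusted p = 4.49e-07) for Cd109 and 3.13 ± 0.35 (SE, adjusted p = 7.19e-08) for Aspg. It was 2.96 ± 0.44 (SE, adjusted p = 7.32e-06) for Serping1, 2.65 ± 0.38 (SE, adjusted p = 5.17e-06) for S1pr3, 2.86 ± 0.43 (SE, adjusted p = 9.33e-06) for S100a6 and 2.54 ± 0.50 (SE, adjusted p = 0.000377) for B3gnt5. In each of these 7 genes every untreated G93A mouse of 155 days was above every untreated G93A mouse of 90 days. The gap was narrow for B3gnt5 (0.981 to 1.07 CPM). The share of all genes with such a gap was not computed, and age cannot be told apart from batch in it.

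Tgm1 was low at 90 days, with 13 counts in all over the untreated WT and 50 over the untreated G93A mice. Its genotype difference changed by 5.93 ± 1.36 (SE, adjusted p = 0.00185), with 5.28 without WT mouse 3 and 6.66 without G93A mouse 11 of the 90-day groups. Ptx3 changed by 3.67 ± 0.63 (SE, adjusted p = 6.99e-05), or 2.83 (adjusted p = 4.3e-05) without the 155-day G93A mouse 11. Lcn2 changed by 3.51 ± 1.06 (SE, adjusted p = 0.0169), and the call rested on that mouse, without which it was 1.39 (adjusted p = 0.225). Steap4 changed by 2.99 ± 0.76 (SE, adjusted p = 0.00453), and by 1.66 (adjusted p = 0.0693) without the 90-day WT mouse with Schwann cell genes. Thbs1 (0.76 ± 0.25 SE, adjusted p = 0.0287) lost its call without 90-day WT mouse 3 (0.66) or G93A mouse 12 (0.68), or 155-day WT mouse 2 (0.65) or G93A mouse 10 (0.73) or 11 (0.60). Fbln5 (1.03 ± 0.41 SE, adjusted p = 0.0746), Amigo2 (-0.26), Fkbp5 (0.47), Sphk1 (0.59) and S100b (0.04) were not called, though Fbln5 was at 1.22, 1.19 and 1.21 without 155-day G93A mouse 9, 10 or 12.

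**Figure D4:**
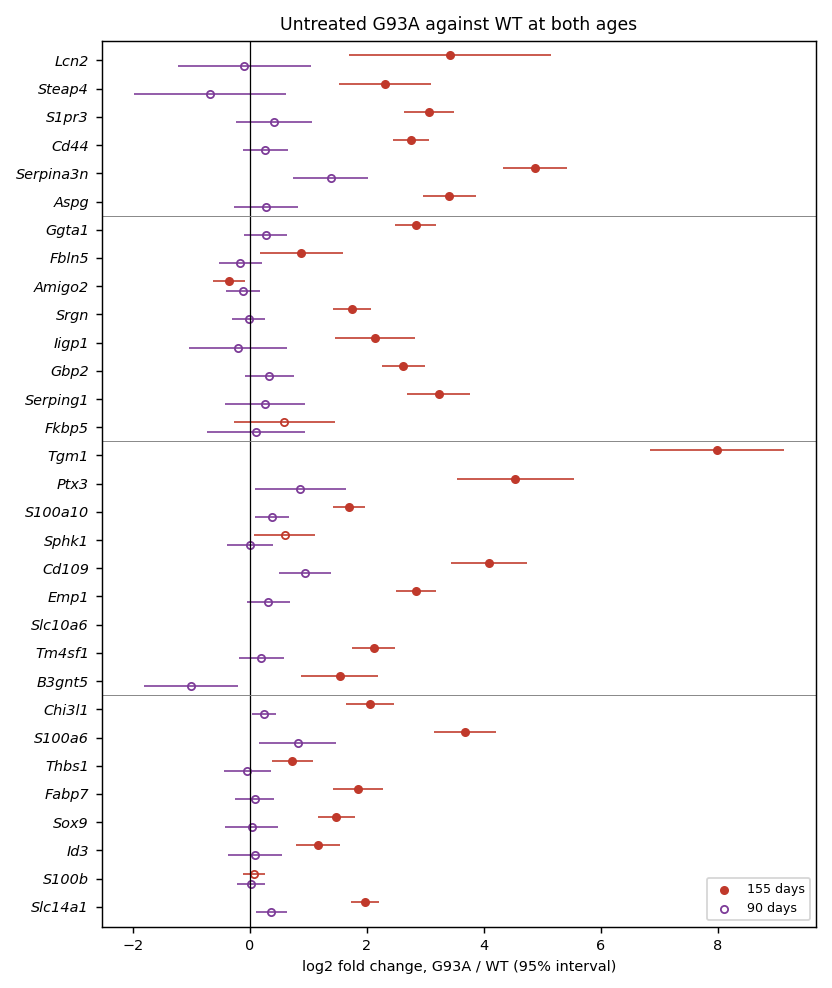
Log2 fold change of untreated G93A against WT mice at 155 days (red) and 90 days (purple), with 95% intervals as bars and filled points for adjusted p under 0.05. Tgm1 was tested at 155 days only and Slc10a6 at neither age. The 155-day points lie to the right of the 90-day points except for Amigo2, and all 90-day points are open.

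No gene of the set was called between OKN-007 and untreated mice in either genotype at either age by edgeR or DESeq2, and none of all genes was called by edgeR (0% in each comparison). In G93A mice at 155 days the median log2 fold change was -0.02, and the 95% intervals of 26 of 30 genes lay within 1 log2 unit of 0, with Lcn2, Steap4, Fbln5 and Fkbp5 outside. The median half-width of the intervals was 0.384, with no adjustment for the number of genes tested. Passing the adjusted threshold takes a larger difference than that in a typical gene, so effects of about this size could go uncalled. At an unadjusted p under 0.05 there was 1 gene, S1pr3, against 4.04% of all genes. It was at 20.2, 21.2, 22.9 and 36.8 CPM untreated and 24.1, 28.1, 34.8 and 43.9 CPM treated, overlapping, a log2 fold change of 0.39 (95% interval 0.02 to 0.75, adjusted p = 0.9996). Serpina3n differed by -0.06 (-0.53 to 0.41), Cd109 by -0.09 (-0.62 to 0.44) and Tgm1 by 0.11 (-0.47 to 0.69). Lcn2 differed by -1.24 (-2.73 to 0.24), and 0.87 without untreated mouse 11.

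In WT mice at 155 days 1 of 30 genes, B3gnt5, had an unadjusted p under 0.05 (2.94% of all genes). It was at 0.294, 0.341, 0.494 and 0.777 CPM untreated and 0.538, 0.749, 0.925 and 1.47 CPM treated, overlapping (0.94, 95% interval 0.26 to 1.61, adjusted p = 1). The intervals of 24 of 30 genes lay within 1 log2 unit of 0. At 155 days 0 of the 30 genes separated all treated from all untreated mice in either direction, in G93A mice (1.88% of all genes above, 1.24% below) or in WT mice (1.12% above, 0.771% below). At this age 1 gene, also B3gnt5, had an unadjusted p under 0.05 in the genotype by treatment term (-0.97, interval -1.86 to -0.08), against 2.34% of all genes, and 0 were called by edgeR or DESeq2 (0% of all genes).

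In G93A mice at 90 days 1 of 29 genes, Lcn2, had an unadjusted p under 0.05, against 5.56% of all genes. It was at 0.661, 0.758, 1.08 and 1.59 CPM untreated and 0.0776, 0.198, 0.409 and 0.601 CPM treated, with no overlap. The log2 fold change was -1.65 (95% interval -2.92 to -0.39, adjusted p = 0.837), and the lowest treated value rested on 2 counts. Fbln5 was also lower without overlap, by a narrow gap (lowest untreated 5.03 CPM, highest treated 5.004 CPM, -0.33), and Cd44 was higher without overlap (highest untreated 25.3 CPM, lowest treated 25.8 CPM, 0.31). Every treated mouse was thus above every untreated one in 1 of 29 genes (1.72% of all genes) and below in 2 (1.29%). In WT mice of that age 4 of 29 were under that p (4.07% of all genes), all lower with OKN-007. Lcn2 was at 0.188, 0.706, 1.68 and 1.84 CPM untreated and 0.136, 0.140, 0.151 and 0.378 CPM treated, overlapping (-2.41, interval -3.77 to -1.05, adjusted p = 0.993). Every treated value of Lcn2 but the highest was below 0.152 CPM, the level of 3 counts in the smallest library. The treated WT mice held 3 to 9 counts of Lcn2 each. Steap4 (-1.76), B3gnt5 (-1.23) and Serping1 (-0.72) were the genes that were high in the untreated WT mouse 3, and without it they differed by -0.42, -0.74 and -0.30, and Lcn2 by -2.76. For Serping1 the highest treated WT mouse (4.49 CPM) was below every untreated one (lowest 4.75 CPM). It was the 1 of 29 genes with every treated WT mouse below (1.24% of all genes), and 0 were above (0.847%). The genotype by treatment term at 90 days had 1 gene under an unadjusted p of 0.05, B3gnt5 (1.56), against 2.81% of all genes, and 0 were called by edgeR or DESeq2 (0% of all genes).

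**Figure D5:**
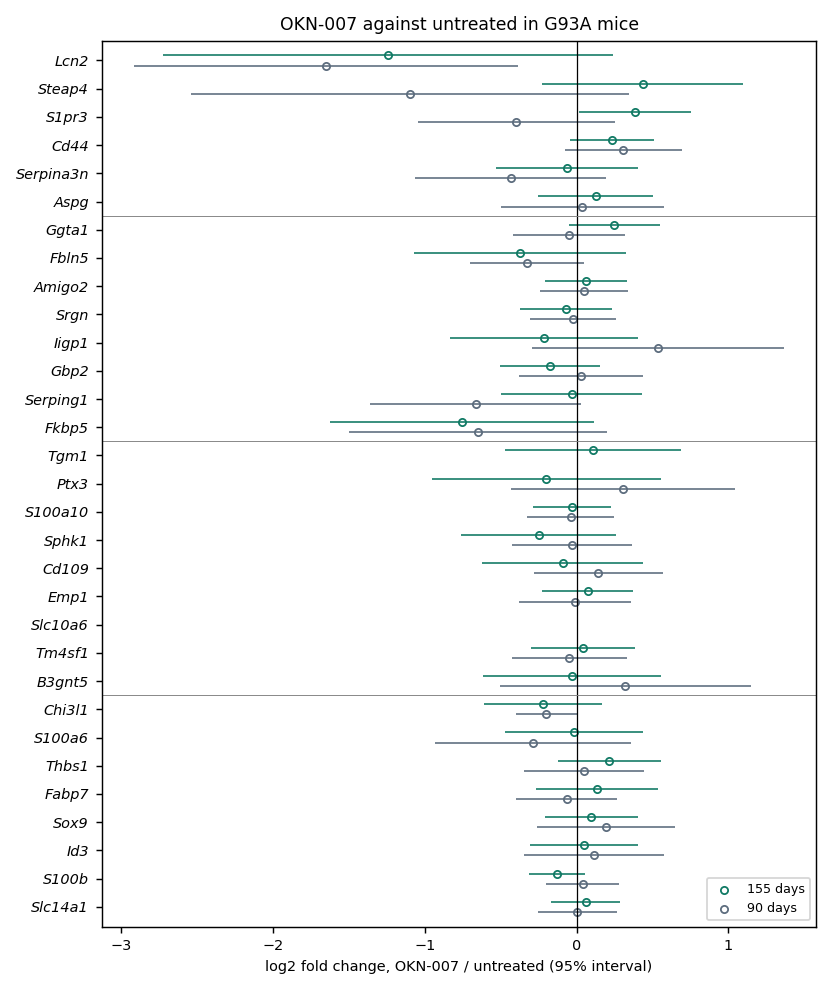
Log2 fold change of OKN-007 against untreated mice in G93A mice at 155 days (green) and 90 days (grey), with 95% intervals as bars. All points are open, since none passed the adjusted threshold. At 155 days 26 of 30 intervals stay within 1 log2 unit of 0, and at 90 days 20 of 29 do.

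Of the 155-day groups, the untreated G93A mice differed most among themselves. The median coefficient of variation of CPM over the genes was 35.0% there, against 15.4% in G93A mice given OKN-007, 14.6% in untreated WT and 14.3% in treated WT mice of that age, and no test of the difference in spread was made. Within the untreated G93A group, mouse 11 was highest in 20 of 31 genes and mouse 10 in the other 11, while mouse 12 was lowest in 15 and mouse 9 in 13. The same pair of mice had the higher microglial sums, 1957 CPM in mouse 11 and 1830 CPM in mouse 10. Mouse 9 was at 1295 CPM and mouse 12 at 1186 CPM. Neuronal genes summed to 1251 CPM in mouse 11 and 1862 CPM in mouse 12, the lowest and highest of the group. Mice 9 and 10 lay between them, and the group mean was 1505 CPM. Among treated G93A mice, mouse 16 was lowest in 22 of 31 genes, with the lowest microglial sum of its group (1408 CPM). At 90 days the untreated G93A mouse 12 was lowest in 23 of 31 genes, and its microglial sum (378 CPM) was the lowest of its group. The genes share each mouse's library and tissue piece, and the part of that in these rankings was not tested.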

How the data were processed

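Raw counts per gene were deposited for 32 libraries (polyA-selected, stranded). The authors trimmed reads with Trimmomatic, aligned them with STAR and counted reads per gene. The methods name GRCm38, HTSeq and GENCODE M10, while the submitters' processing notes name GRCm39 and featureCounts, so no gene coordinates are given from the count table. How reads shared between close copies (Serpina3n, Gbp2, Iigp1) were treated is not given in the sources used here. Symbols and exon lengths came from GENCODE M21 (41203 of 42524 identifiers, 96.9%).

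Groups followed the sample labels. Counts were tested in R 4.3.3 with edgeR 4.0.16 (TMM, filterByExpr with a minimum count of 10, quasi-likelihood F-test) in the 16 mice of each age as 4 groups, and in all 32 mice as 8 groups for the change with age. Benjamini-Hochberg adjustment covered all 18899, 18675 or 19829 genes tested, with a threshold of 0.05. DESeq2 1.42.0 and edgeR's likelihood ratio test, robust dispersions, RLE scaling, other count filters, a caudal Hox covariate, only the compared groups, a log2 fold change of at least 1 and leaving out each mouse were alternatives. The scripts were tested on simulated counts. Depth limits precision for genes of a few counts (3 counts are 0.152 CPM in the smallest library), and counting intervals cover counting error only. The spread is that between mice. No 2 libraries of a group agreed within counting noise.

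All 31 members were named. Values in every mouse were given for the 8 with the largest called change in untreated mice at 155 days, any called lower there, and the member with the smallest p in each comparison at 90 days or with OKN-007. Genes too low to test were given by range, and up to 4 genes of each context list by smallest p. A marker gene of a context list is not reported here. The rule uses no measured value, but the members and lists were chosen with earlier results of these data known.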

Additional observations from a re-analysis of the deposited data

Results flagged for a closer look

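In 128 sets of 4 mice (the genes given by mouse and the group means), 10 had 1 mouse far from the other 3 by Dixon's criterion. The criterion passes about 1 in 20 sets of independent, normally distributed values. These sets share mice and genes, and most genes were chosen by their changes or p, so that rate is no yardstick here. At 155 days, Ptx3 (54.9 CPM) and Lcn2 (32.8 CPM) in untreated G93A mouse 11 were above the other 3, as was S1pr3 in mouse 10 (36.8 CPM). Tgm1 in treated G93A mouse 16 (6.49 CPM) was below its group. In WT mice of that age, S100a6 in untreated mouse 2 (8.64 CPM), the mean log2(CPM + 1) of the other astrocyte genes in that mouse (4.81) and S1pr3 in treated mouse 6 (3.37 CPM) were above their groups. At 90 days, Ptx3 in untreated G93A mouse 12 (1.31 CPM) was low, while Lcn2 in treated WT mouse 7 (0.378 CPM) and Serping1 in untreated WT mouse 3 (11.9 CPM) were high, the last in the library with the highest Schwann cell genes.

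The G93A difference of untreated mice changed between the ages in 25 of 30 genes by the test of that change itself. On the log2 scale it grew by 5.93 for Tgm1, 3.49 for Serpina3n, 3.67 for Ptx3, 3.15 for Cd109 and 2.86 for S100a6. It grew by 3.51 for Lcn2, 3.13 for Aspg, 2.96 for Serping1, 2.54 for B3gnt5 and 2.65 for S1pr3. Lcn2 lost the call without 155-day G93A mouse 11 (1.39).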

How the results depend on the processing

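The number of genes called between genotypes at 155 days was 23 to 29 in untreated mice over 10 alternatives (27 as reported) and 21 to 27 with OKN-007 (24 as reported), lowest when at least 10 counts were asked of every mouse, which tests fewer genes. For the change with age it was 21 to 25. Leaving out 1 mouse at a time gave 25 to 29, 24 to 25 and 23 to 26. At 90 days the count in untreated mice was 1 with DESeq2, 2 with the likelihood ratio test, 2 with no low-count filter and 0 to 1 without 1 mouse. With OKN-007 it was 2 with no low-count filter and 0 without any 1 mouse. Averaged over treatments it was 3 with DESeq2, 3 with the likelihood ratio test, 1 with robust dispersions, 5 with no low-count filter, 1 in the fit of all 32 mice and 0 to 4 without 1 mouse. The cause was not tested. The OKN-007 comparisons gave 0 under every alternative run and without any 1 mouse. The mean difference of the set at 155 days (1.84 in log2 units) was 2.16 with a pseudocount of 0.1, 1.40 with 5 and 1.65 to 1.96 without 1 mouse. No log2 fold change of a called gene reversed. RLE scaling shifted the median of all genes by -0.0234 in the comparison it moved most.

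Mice sharing a sample number across groups did not deviate together (correlations of -0.22 to 0.26, 4 of 16 above 0.1), so the numbers were not taken as pairs. With the number as a replicate block the change with age was called in 24 genes, and Lcn2 was not (2.37, adjusted p = 0.0767).

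Limits are the 4 mice per group, caudal Hox levels that differ between groups, age and batch that cannot be told apart, and low counts in Tgm1 at 90 days, Slc10a6, Steap4 and B3gnt5.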
